A study of Mus musculus with 18 samples.

Results

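Expression of 10 nuclear receptor genes of bile acid, xenobiotic and lipid metabolism was described in mouse liver tumors. They were Nr1h4 (FXR), Nr0b2 (SHP), Nr1i2 (PXR), Nr1i3 (CAR), Ppara, Ppard, Pparg, Rxra, Nr1h3 (LXR alpha) and Esrra. The genes were taken by symbol from 43346 genes in the deposited tumor table, and all 10 passed the filter on low counts. Tumors carried activated AKT (myr-AKT) in every group, together with YAP that bears S127A (YAP-S) or S127A/Y357F (YAP-SY). Y357 is a tyrosine of YAP, and S127A removes a serine through which the Hippo kinases hold YAP in the cytoplasm. Genotype labels split each model into cholangiocarcinoma (CCA) and mixed tumors, with 3 tumors per group and 12 in all. Whole tumor nodules were sequenced, so every value is a mixture over cell types. Mouse strain, age, the promoter of the transgenes, the time of collection and the feeding state are not given in the sources used here. SB1 cells, with the genotype label of YAP-S CCA, were measured in 3 samples, and 3 samples of SY1 cells were not analysed here. Nothing in the labels says that the SB1 samples came from separate isolations, so their spread may be technical.

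Nuclear receptors are transcription factors that are switched by small lipophilic ligands. FXR senses bile acids and acts in part by inducing SHP, a receptor-like protein without a DNA-binding domain that represses bile acid synthesis. PXR and CAR sense drugs and endogenous toxins and induce cytochrome P450 genes and transporters. The PPARs bind fatty acids, LXR alpha binds oxysterols, and all of these except SHP bind DNA with RXR alpha as partner. ERR alpha has no known natural ligand and works with PGC-1 coactivators on mitochondrial genes.

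RefSeq promoter windows (GRCm38.p6, 250 bases before to 50 bases after a start) were matched for all 10 genes, with 14 windows in all. Windows of Nr1h4, Ppara and Ppard are shown because Nr1h4 and Ppara rose and Ppard fell in the comparison of the CCA tumors. Capitals mark the receptor hexamer AGGTCA, the TEAD core GGAATG and the HNF1 core GTTAAT on either strand. The windows lie at chr10:89506609-89506908 (minus strand), chr15:85735526-85735825 (plus strand) and chr17:28232504-28232803 (plus strand), and each is printed in the direction of transcription.
Nr1h4: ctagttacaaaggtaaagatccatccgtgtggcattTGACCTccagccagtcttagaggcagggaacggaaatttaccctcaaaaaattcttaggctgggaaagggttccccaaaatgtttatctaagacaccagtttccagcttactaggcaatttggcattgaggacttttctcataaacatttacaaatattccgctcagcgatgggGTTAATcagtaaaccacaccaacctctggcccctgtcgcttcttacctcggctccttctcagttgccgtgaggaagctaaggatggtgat
Ppara: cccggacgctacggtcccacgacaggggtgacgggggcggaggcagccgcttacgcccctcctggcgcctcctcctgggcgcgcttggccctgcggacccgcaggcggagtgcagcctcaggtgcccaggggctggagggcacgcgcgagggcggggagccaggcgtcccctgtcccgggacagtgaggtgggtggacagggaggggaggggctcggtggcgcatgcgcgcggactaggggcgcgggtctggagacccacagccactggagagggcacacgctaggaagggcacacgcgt
Ppard: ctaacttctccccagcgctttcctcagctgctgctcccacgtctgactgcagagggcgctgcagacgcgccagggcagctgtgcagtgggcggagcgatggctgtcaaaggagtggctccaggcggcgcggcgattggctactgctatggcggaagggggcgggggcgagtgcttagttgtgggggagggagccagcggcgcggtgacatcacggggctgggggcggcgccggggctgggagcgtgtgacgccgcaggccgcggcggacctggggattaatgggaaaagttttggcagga
In the Nr1h4 window, the receptor hexamer began 214 bases before the start, on the reverse strand, and the HNF1 core 40 bases before it. That start lies inside the gene, whose annotated 5' end is at chr10:89533585. No window at that end was among those searched. Neither PPAR window held any of the 3 motifs. GC content was 45.7% for Nr1h4, 74.7% for Ppara and 68.3% for Ppard, against a median of 52.7% over all windows.

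Over the 14 windows, AGGTCA was found in 4, which belonged to Nr1h4, Pparg (2 windows) and Rxra (1 window). Of all 32851 RefSeq windows, 16.3% held it. No member window held the TEAD core, which was present in 14.7% of all windows, and GTTAAT was in 1 of 14 against 7.1%. Both strands were also searched for AGGTCANAGGTCA, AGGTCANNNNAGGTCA and AGGTCANTGACCT, each of which contains the hexamer, and none was found in a member window. Their shares of all windows were 0.0396%, 0.0152% and 0.00913%. The HNF4 type site CAAAGTCCA (0.475% of all windows) and the ERR type site TCAAGGTCA (0.423%), which ends in the hexamer, were not found either. These matches describe letters in a short window and were not tested against binding.

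Tumor libraries held 30656499 to 130035221 counts. YAP-SY CCA tumor 1 had a count for 18207 genes, the fewest, against 20440 to 24391 in the other tumors. Marker sums are in CPM (counts scaled to a common library size), here after scaling by the trimmed mean of M-values (TMM). Hepatocyte markers (8 genes) summed to 153881 to 170881 CPM in YAP-SY CCA and 55778 to 67223 in YAP-S CCA. They summed to 94452 to 99403 in YAP-S mixed and 97127 to 126870 in YAP-SY mixed tumors. By library size alone, the hepatocyte sums were 128057 to 132465 CPM in YAP-SY CCA and 72213 to 77521 in YAP-S CCA. Cholangiocyte markers (8 genes) summed to 2774 to 4198 CPM in the YAP-SY CCA group and to 7506 to 10880 in YAP-S CCA. In mixed tumors the cholangiocyte sum was 9462 to 10229 for YAP-S and 4305 to 16446 for YAP-SY. Tumors labelled YAP-SY CCA thus had the highest hepatocyte and the lowest cholangiocyte marker sums of the 4 groups. No marker of either list was at 0 in a whole tumor group. Fibroblast markers (8 genes) summed to 453.9 to 619.4 CPM in the YAP-SY CCA group and to 1871 to 2367 in YAP-S CCA. For each tumor result given here, the part of these markers in it was not tested. In such bulk samples, fewer cells of a type and less RNA per cell cannot be told apart.

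In CCA tumors, 7 of the 10 receptors were higher with YAP-SY than with YAP-S (Nr1h4, Nr1i2, Nr1i3, Ppara, Pparg, Rxra and Nr1h3). Ppard alone of the 10 was lower, and Nr0b2 and Esrra did not pass the threshold. The background was wide, with 39.1% of 18318 tested genes called, 18.3% higher and 20.8% lower. Calls are from edgeR's quasi-likelihood test at an adjusted p under 0.05 over all tested genes, and levels are CPM after scaling by the trimmed mean of M-values (TMM). TMM sets the median gene near no change, and with library size alone the median log2 change of all genes moved to -0.56 in this comparison. On that scale 4 receptors were called: Nr1h4 and Ppara higher, and Ppard and Esrra lower. Of all tested genes, 4.15% were called higher and 44% lower there. The shares on both scales are also the background for the counts of list genes in CCA given below.

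**Figure D1:**
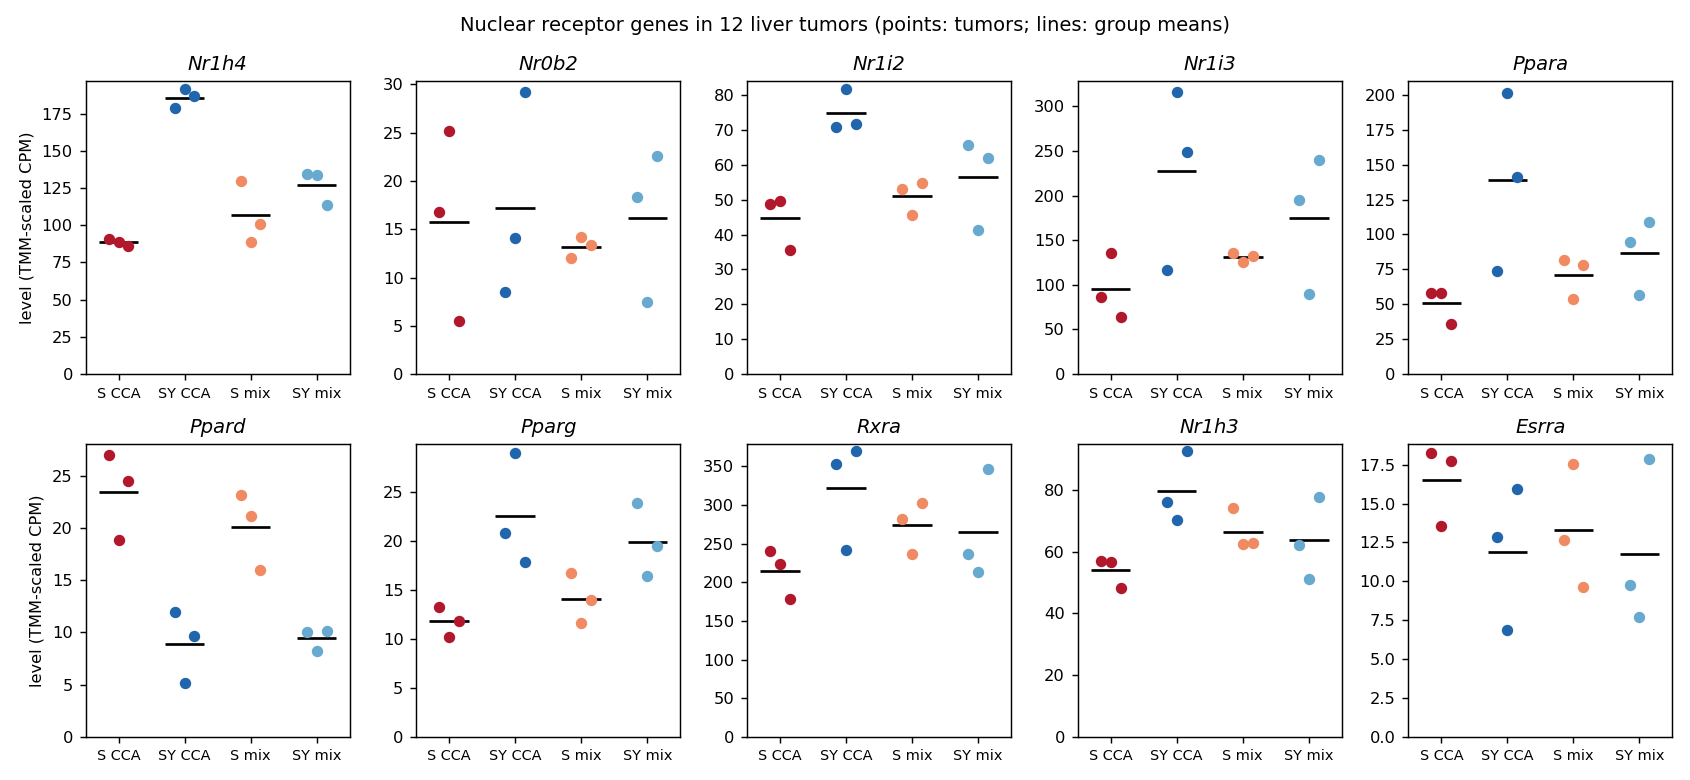
Level of each receptor gene (TMM-scaled CPM, linear axis from 0) in every tumor, with points for tumors and lines for the means of 3 tumors. The YAP-SY points of Ppard, at 5.14 to 11.99 CPM over CCA and mixed tumors, all lie below its YAP-S points, at 16 to 27 CPM. The share of all tested genes that separate this way over both histologies was not counted.

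Among the bile acid receptors, Nr1h4 (ENSMUSG00000047638, chr10:89454234-89533585, mm10) had the tightest values. It measured 90.5, 88.8 and 86.2 CPM in the YAP-S CCA tumors 3, 4 and 5, and 179, 192 and 187 CPM in the YAP-SY CCA tumors 1, 6 and 8. Every YAP-SY CCA tumor was far above every YAP-S CCA tumor, where 24.3% of all tested genes were higher without overlap. The log2 fold change was 1.07 (SE 0.14, edgeR adjusted p = 0.000247), a 2.1-fold rise in the fit. Left out 1 at a time, no tumor removed this call, and the log2 fold change stayed between 1.04 and 1.10. The size of the rise depended on the scaling. By library size alone the means were 106 CPM in YAP-S CCA and 151 CPM in YAP-SY CCA, a smaller rise that was still called. The means of the mixed groups lay between those of the CCA groups, with single tumors at 130, 89.0 and 101 CPM with YAP-S (tumors 2, 7 and 9) and 134, 134 and 114 CPM with YAP-SY (tumors 3, 5 and 9). YAP-S mixed tumor 7 was within the YAP-S CCA range. The mixed groups overlapped, and the log2 fold change was 0.26 (SE 0.14, adjusted p = 0.999).

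Nr1h4 was also the 1 receptor of the 10 whose YAP-SY effect differed between the histologies, where 15.2% of all tested genes were called (5.02% as higher). The effect was larger in CCA by 0.81 on the log2 scale (SE 0.20, edgeR adjusted p = 0.0204). With library size alone that adjusted p was 0.284, and without YAP-S mixed tumor 2 or YAP-S CCA tumor 5 it was 0.0577 and 0.0578. The within-group SD of Nr1h4 was 0.16 on the log2 scale, at the 14th percentile of tested genes.

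Nr0b2 (ENSMUSG00000037583, chr4:133553376-133556536), which FXR induces, was far more variable. It was at 16.8, 25.2 and 5.45 CPM in the YAP-S CCA tumors and 8.45, 14.1 and 29.2 CPM in the YAP-SY CCA group. The groups overlapped over most of their range, and the log2 fold change was 0.12 (SE 0.53, adjusted p = 0.879). Mixed tumors held 12.1, 14.2 and 13.3 CPM with YAP-S and 18.4, 7.48 and 22.5 CPM with YAP-SY, also overlapping. Its within-group SD of 0.84 was at the 85th percentile of tested genes, so a change of the size seen for Nr1h4 lay within about 2 SE.

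Genes that FXR activates (13 listed, 12 tested) had 9 higher and 0 lower in YAP-SY CCA, with a median log2 fold change of 1.15 against 0.00 over all tested genes. Kng1, which encodes kininogen, went from 1149 ± 196 to 3074 ± 357 CPM (SD, n = 3; log2 fold change 1.42). The phospholipid exporter Abcb4 went from 129 ± 19.8 to 321 ± 31.7 CPM (1.32) and the bile acid conjugating enzyme Baat from 169 ± 26.3 to 402 ± 57.8 CPM (1.25). The bile acid synthesis enzymes that FXR and SHP repress were higher as well. Cyp7a1, the rate-limiting enzyme of that pathway, was at 63.6 ± 22.4 CPM in the YAP-S CCA tumors and 202 ± 22.2 CPM in the YAP-SY CCA group (log2 fold change 1.67, SE 0.32, adjusted p = 0.00194). Cyp8b1, which sets the share of cholic acid, was at 246 ± 65.5 and 556 ± 54.3 CPM (1.18, SE 0.29, adjusted p = 0.00762). With library size alone, 6 of the 12 activated targets stayed called higher and 1 of the 2 synthesis enzymes. Of all tested genes, 4.15% were called higher and 44% lower on that scale.

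Both xenobiotic receptors rose in YAP-SY CCA. Nr1i2 (ENSMUSG00000022809, chr16:38248323-38294824) was at 48.7, 49.7 and 35.6 CPM in the YAP-S CCA tumors and 70.9, 81.7 and 71.8 CPM in the YAP-SY CCA group. The groups did not overlap, and the log2 fold change was 0.74 (SE 0.18, adjusted p = 0.00692). In mixed tumors it was at 53.1, 45.6 and 54.8 CPM with YAP-S and 65.8, 41.3 and 62.0 CPM with YAP-SY, with 1 YAP-SY tumor below every YAP-S tumor.

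Nr1i3 (ENSMUSG00000005677, chr1:171213970-171220701) spread more widely. It was at 86.2, 136 and 64.0 CPM in the YAP-S CCA tumors and 117, 316 and 249 CPM in the YAP-SY CCA group. YAP-SY CCA tumor 1 lay within the YAP-S range. The log2 fold change was 1.25 (SE 0.39, adjusted p = 0.0240), and the call was lost when tumor 3 or 5 of YAP-S CCA, or tumor 6 or 8 of YAP-SY CCA, was left out, where the adjusted p reached 0.105. Mixed tumors held 136, 126 and 132 CPM with YAP-S and 195, 89.3 and 240 CPM with YAP-SY, around the narrow YAP-S range on both sides. The exons of Nr1i3 share 3304 bases, 74.9% of its length in the table, with the antisense gene Tomm40l. The libraries did not mark strand, and how reads in that stretch were counted is not stated. The level of Nr1i3 is therefore uncertain. Tomm40l itself was at 22.02 ± 0.793 CPM in the YAP-S CCA tumors and 19.2 ± 1.79 CPM in the YAP-SY CCA group (SD, n = 3). In SB1 cells Tomm40l held 1376, 1162 and 993 counts while Nr1i3 held 1, 0 and 0. Almost no reads of Tomm40l were thus counted for Nr1i3 in those samples.

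Targets of PXR and CAR had 11 of 18 higher and 0 lower in YAP-SY CCA, with a median log2 fold change of 0.92. Cyp3a11, a major drug-metabolizing P450, went from 2213 ± 564 to 6431 ± 949 CPM (1.54). Abcc2, an exporter of conjugates into bile, went from 447 ± 38.1 to 1135 ± 323 CPM (1.34), and Cyp2c37 from 127 ± 17.6 to 307 ± 15.8 CPM (1.28). Library size alone left 7 higher and 1 lower, where 4.15% of all tested genes were called higher and 44% lower.

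The 3 PPAR genes split. Ppara (ENSMUSG00000022383, chr15:85734983-85802819), the main PPAR of hepatocytes and a driver of fatty acid oxidation, was at 58.1, 58.1 and 35.8 CPM in the YAP-S CCA tumors and 73.9, 202 and 141 CPM in the YAP-SY CCA group. All YAP-SY CCA tumors were higher, with tumor 1 only just above. The log2 fold change was 1.45 (SE 0.35, adjusted p = 0.00586), and the call held in each of the 12 leave-outs. Mixed tumors held 81.9, 53.4 and 78.3 CPM with YAP-S and 94.9, 56.4 and 109 CPM with YAP-SY, overlapping.

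Ppard (ENSMUSG00000002250, chr17:28232754-28301469), a PPAR of broad tissue distribution, went the other way. It was at 27.0, 18.8 and 24.5 CPM in the YAP-S CCA tumors and 11.99, 5.14 and 9.65 CPM in the YAP-SY CCA group. It was at 23.2, 21.1 and 16.0 CPM in the YAP-S mixed group and 10.04, 8.24 and 10.2 CPM in the YAP-SY mixed tumors. All 6 YAP-SY tumors were below all 6 YAP-S tumors. The share of all tested genes that separate this way over both histologies was not counted. Within CCA 28.3% and within mixed tumors 4.05% of them were lower without overlap. In CCA Ppard fell by 1.39 on the log2 scale (SE 0.27, adjusted p = 0.00184), a call kept in each leave-out. In mixed tumors the log2 fold change was -1.09 (SE 0.27, unadjusted p = 0.00137), and the adjusted p over all genes was 0.999. The difference between the histologies was -0.30 (SE 0.37, adjusted p = 0.616).

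Pparg (ENSMUSG00000000440, chr6:115361221-115490401), the PPAR of fat storage, was at 13.3, 10.3 and 11.9 CPM in the YAP-S CCA tumors and 20.8, 29.0 and 17.9 CPM in the YAP-SY CCA group. The groups did not overlap, and the log2 fold change was 0.93 (SE 0.21, adjusted p = 0.00471). Mixed tumors held 16.8, 11.7 and 14.0 CPM with YAP-S and 23.9, 16.4 and 19.5 CPM with YAP-SY, with a log2 fold change of 0.50 (SE 0.21, unadjusted p = 0.0368, adjusted p = 0.999). Gene counts cannot separate the 2 protein forms of this gene. Adipocyte markers (4 genes) summed to 0 to 0.755 CPM over the 12 tumors.

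The ratio of 2 genes within a tumor does not depend on the scaling. Of such ratios, 4 were chosen after the values were seen, and they are given without a test. Ppara counts were 2.15, 3.08 and 1.46 times Ppard counts in YAP-S CCA, and 6.16, 39.2 and 14.7 times in YAP-SY CCA. In mixed tumors the ratio was 3.53, 2.53 and 4.89 with YAP-S and 9.44, 6.85 and 10.7 with YAP-SY. Every YAP-SY ratio was above every YAP-S ratio. The mean difference over both histologies was 2.08 on the log2 scale, and 1.74 to 2.41 when tumors were left out in turn. For Pparg to Ppard the ratio was below 1 in all 6 YAP-S tumors, at 0.485 to 0.874, and 1.74 to 5.65 in the YAP-SY tumors. Both of these ratios have Ppard as denominator. For Nr1h4 to Nr0b2 the mean difference over both histologies was 0.50 on the log2 scale, and for Nr1i3 to Nr1i2 it was 0.31. In both, the YAP-SY and YAP-S tumors overlapped within each histology.

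**Figure D2:**
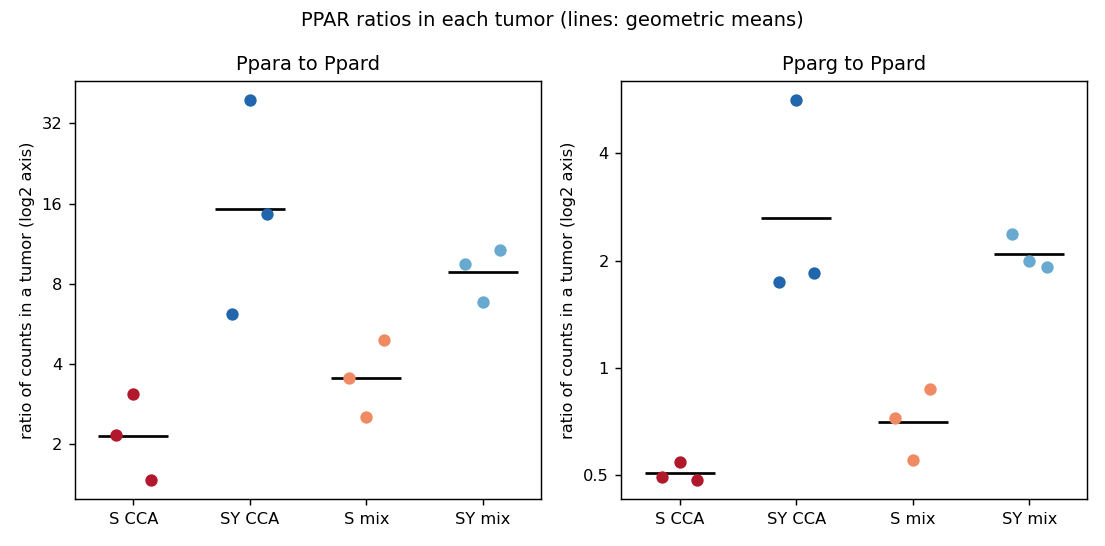
Ratio of Ppara to Ppard counts (left) and of Pparg to Ppard counts (right) in each tumor, on log2 axes, with lines at the geometric mean of 3 tumors. All 6 YAP-SY tumors lie above all 6 YAP-S tumors in both panels, and YAP-SY CCA tumor 6 is the highest in each. Both ratios have Ppard as denominator and were chosen after the values were seen.

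PPAR alpha targets had 14 of 20 higher and 0 lower in YAP-SY CCA, with a median log2 fold change of 0.95. Cyp4a10, a fatty acid hydroxylase, went from 67.9 ± 14.9 to 281 ± 8.26 CPM (2.05). Acadm, a dehydrogenase of fatty acid oxidation, went from 227 ± 12.1 to 478 ± 7.77 CPM (1.08). Library size alone left 10 of the 20 higher and 0 lower, where 4.15% of all tested genes were called higher and 44% lower. Fat storage targets of PPAR gamma (8 listed, 7 tested) had 2 higher, Plin4 (1.04) and Cd36 (1.14), and 1 lower. The lower gene was the lipid droplet gene Cidea, at 3.78 ± 2.86 CPM in the YAP-S CCA tumors and 0.805 ± 0.426 CPM in the YAP-SY CCA group (-2.24). None of the 7 was higher, and 2 were lower, with library size alone, against the same shares of all tested genes.

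Rxra (ENSMUSG00000015846, chr2:27676440-27762957), the shared partner, was at 241, 224 and 178 CPM in the YAP-S CCA tumors and 353, 242 and 370 CPM in the YAP-SY CCA group. The groups came within about 1 CPM of each other without overlapping. The log2 fold change was 0.59 (SE 0.21, adjusted p = 0.0465), and the call was lost in 9 of the 12 leave-outs, where the adjusted p reached 0.172. It was also lost without the count filter and when only the CCA tumors were fitted. Mixed tumors held 282, 237 and 303 CPM with YAP-S and 236, 213 and 346 CPM with YAP-SY, a range that enclosed the YAP-S one.

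Nr1h3 (ENSMUSG00000002108, chr2:91184061-91202834), which drives cholesterol export and fat synthesis, was at 57.0, 56.5 and 48.2 CPM in the YAP-S CCA tumors and 76.1, 70.2 and 92.7 CPM in the YAP-SY CCA group, with no overlap. The log2 fold change was 0.56 (SE 0.16, adjusted p = 0.0168), and the call was lost when tumor 5 of YAP-S CCA or tumor 8 of YAP-SY CCA was left out (largest adjusted p 0.0763). In mixed tumors it was at 74.0, 62.5 and 62.7 CPM with YAP-S and 62.2, 51.1 and 77.6 CPM with YAP-SY. LXR targets had 6 of 10 higher and 1 lower in YAP-SY CCA, with a median of 0.57. With library size alone 3 were higher and 1 lower, where 4.15% of all tested genes were called higher and 44% lower. The sterol exporters Abca1 and Abcg5 went from 157 ± 11.2 to 353 ± 45.9 CPM (1.17) and from 20.7 ± 4.72 to 75.7 ± 23.5 CPM (1.86). Lpcat3, a phospholipid remodelling enzyme, changed by 0.59. The lower gene was Abcg1, another sterol exporter, at -0.94; it was chosen after its value was seen.

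Esrra (ENSMUSG00000024955, chr19:6910977-6921813) was at 18.3, 13.6 and 17.7 CPM in the YAP-S CCA tumors and 12.9, 6.85 and 15.9 CPM in the YAP-SY CCA group. The groups overlapped, and the log2 fold change was -0.48 (SE 0.35, adjusted p = 0.300). It was called lower with library size alone. Mixed tumors held 12.7, 17.5 and 9.61 CPM with YAP-S and 9.75, 7.72 and 17.9 CPM with YAP-SY, again overlapping. Its mitochondrial targets had 5 of 10 higher and 0 lower in CCA, with a median of 0.55. Of all tested genes 18.3% were called higher and 20.8% lower. With library size alone 0 targets were higher and 3 lower, where 4.15% of all tested genes were called higher and 44% lower. Atp5b changed by 0.79, Sdhd by 0.77 and Uqcrfs1 by 0.83 on the log2 scale.

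**Figure D3:**
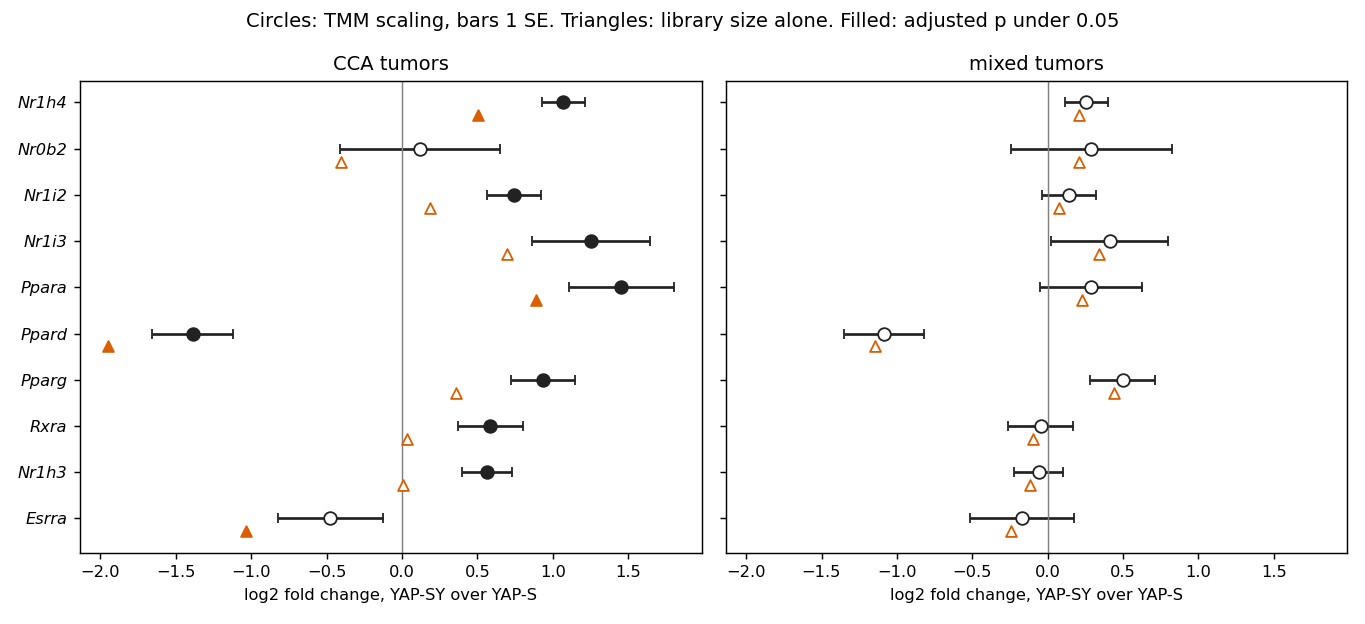
Log2 fold change of YAP-SY over YAP-S for each receptor in CCA (left) and mixed tumors (right). Circles with bars of 1 SE use TMM scaling, triangles use library size alone, and filled symbols have an adjusted p under 0.05. Ppard lies below 0 in both panels on both scales, and no symbol is filled in mixed tumors.

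Without overlap between the CCA groups, 6 receptors were higher and 1 lower. Of all tested genes 52.6% were without overlap, 24.3% higher and 28.3% lower. With library size alone, 2 were higher without overlap (Nr1h4 and Nr1i2) and 2 lower (Ppard and Esrra), where 58.2% of all genes were without overlap (6.14% higher, 52.1% lower). Receptors were also set against the mean log2 level of the 8 hepatocyte markers in the same tumor, a measure chosen after the values were seen. Those markers were higher by 1.20 in YAP-SY CCA than in YAP-S CCA on the log2 scale. Relative to them, 0 receptors were higher without overlap, and 5 were lower: Nr1i2 (-0.45), Ppard (-2.66), Rxra (-0.63), Nr1h3 (-0.64) and Esrra (-1.75). On that measure 0.682% of all tested genes were higher and 76.8% lower without overlap. The other 5 overlapped between the groups, with Nr1h4 at -0.13, Nr1i3 at 0.00, Ppara at 0.17, Pparg at -0.29 and Nr0b2 at -1.005. In mixed tumors the markers differed by 0.15, and Ppard (-1.22) was the 1 receptor without overlap relative to them, where 1.2% of all tested genes were higher and 6.37% lower.

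In mixed tumors 0 of the 10 receptors and 0 of 18318 genes were called (0.0%) by edgeR. At an unadjusted p under 0.05 there were 551 genes, among them Ppard and Pparg; DESeq2 called 11 genes and limma-voom 0, with 0 receptors in either. Ppard was the 1 receptor without overlap, and lower, where 8.35% of all genes were without overlap (4.3% higher, 4.05% lower). Pparg with library size alone was also without overlap, at 17.5 to 22.3 CPM with YAP-SY and 12.7 to 16.8 CPM with YAP-S, where 8.78% of all genes were (3.01% higher, 5.77% lower). Beside the values above, the log2 fold changes were 0.29 (SE 0.53) for Nr0b2, 0.14 (SE 0.18) for Nr1i2, 0.41 (SE 0.39) for Nr1i3 and 0.29 (SE 0.34) for Ppara. They were -0.05 (SE 0.21) for Rxra, -0.06 (SE 0.16) for Nr1h3 and -0.17 (SE 0.35) for Esrra. No gene of the target, partner or marker lists was called, and the medians of the target and partner lists ran from -0.24 (PPAR gamma targets) to 0.28 (LXR targets).

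Over both histologies, 6 of the 10 receptors were called, where 24.9% of all tested genes were (11.8% higher, 13.1% lower). Nr1h4 was higher by 0.66 (adjusted p = 0.00161), Pparg by 0.72 (0.00622), Ppara by 0.87 (0.0214), Nr1i2 by 0.44 (0.0258) and Nr1i3 by 0.83 (0.0438), and Ppard was lower (-1.24, adjusted p = 0.00161), all on the log2 scale. Nr1h4, Ppard and Pparg kept their calls with library size alone (3.16% of all genes higher, 33.2% lower) and in each leave-out. When mixed tumor 7 or CCA tumor 5 of YAP-S, or CCA tumor 6 or mixed tumor 3 of YAP-SY, was left out, those 3 alone stayed called.

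Between histologies, no receptor was called. In YAP-S, edgeR called 0 genes (0.0%; 3636 at an unadjusted p under 0.05, 1514 by DESeq2 and 758 by limma-voom), and 0 receptors by any of these, also at an unadjusted p under 0.05. Nr1h3 was the 1 receptor without overlap there, lower in CCA (-0.30, SE 0.16, adjusted p = 0.334), where 37.8% of all genes were without overlap (20.2% higher, 17.6% lower). Its ranges overlapped with library size alone. In YAP-SY, 2.9% of genes (0.207% higher, 2.7% lower) and 0 receptors were called. Nr1h4 was higher in CCA than in mixed tumors by 0.55 (SE 0.14, adjusted p = 0.0584) and Nr1i2 by 0.41 (SE 0.18, adjusted p = 0.215). Both were without overlap, where 20.1% of all genes were (7.99% higher, 12.1% lower), Nr1i2 not with library size alone, and these 2 receptors had an unadjusted p under 0.05. DESeq2 called Nr1h4, and so did edgeR without YAP-S mixed tumor 2, while limma-voom called 0 receptors.

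On the TMM scale, the order of the group means was YAP-SY CCA, YAP-SY mixed, YAP-S mixed and YAP-S CCA, from high to low, for Nr1h4, Nr1i2, Nr1i3, Ppara and Pparg. For Nr1h4 and Nr1i2 the top group stood clear of the next and all other neighbours overlapped. For Nr1i3, Ppara and Pparg every pair of neighbours overlapped. Rxra and Nr1h3 had YAP-S mixed tumors second, with all neighbours overlapping. Ppard ran from YAP-S CCA over YAP-S mixed and YAP-SY mixed to YAP-SY CCA, and its 1 gap without overlap lay between the YAP-S and the YAP-SY groups. Nr0b2 and Esrra had overlapping neighbours throughout. The order with library size alone was the same for Nr1h4, Nr1i3, Ppara and Ppard and changed for the other 6. On that scale Nr1i2 in YAP-SY CCA overlapped the next group, and Pparg was highest in YAP-SY mixed tumors.

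Per kb of gene length, Nr1h4 was at 80.7 CPM per kb in YAP-SY CCA and Rxra at 58.9, with Nr1i3 at 51.5, Ppara at 36.2, Nr1h3 at 31.7 and Nr1i2 at 29.3. Nr0b2 followed at 15.2, Pparg at 11.4, Esrra at 4.68 and Ppard at 1.93. In YAP-S CCA, Rxra (39.2) and Nr1h4 (38.4) were level, and Ppard was again the lowest (5.06). The lengths are those of the deposited table. For Ppard, Pparg and Esrra they are shorter than the union of exons in GENCODE M21 (4631 against 7514 bases, 1984 against 2953 and 2539 against 4387), so their levels per kb depend on the gene model. Nr1i3 shares 74.9% of its length with the antisense gene Tomm40l. How reads in that stretch were counted is not stated, so its level per kb and its place in this order are uncertain.

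Other nuclear receptors of liver had 10 of 31 higher and 5 lower in YAP-SY CCA, with a median log2 fold change of 0.27. Of all tested genes 18.3% were called higher and 20.8% lower. Nr3c2, the mineralocorticoid receptor, went from 8.30 ± 1.02 to 20.5 ± 3.39 CPM (1.30), and the thyroid hormone receptor Thrb from 25.8 ± 4.23 to 59.8 ± 8.71 CPM (1.21). The vitamin D receptor Vdr, a bile acid sensor of non-parenchymal cells, went from 1.88 ± 0.580 to 0.0395 ± 0.0464 CPM (-5.41, SE 0.89, adjusted p = 0.000776). With library size alone this list had 5 higher and 11 lower, where 4.15% of all tested genes were called higher and 44% lower. Coregulators had 6 of 18 higher and 1 lower (median 0.31). With library size alone they had 0 higher and 5 lower, against the same shares. Ppargc1a, the PGC-1 alpha coactivator, went from 5.73 ± 0.0152 to 10.6 ± 2.88 CPM (0.89), Ncoa2 changed by 0.57 and Ncoa6 by 0.52.

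Hepatocyte markers had 7 of 8 higher in YAP-SY CCA (median 1.25), cholangiocyte markers 6 of 8 lower (-1.94) and fibroblast markers 6 of 8 lower (-2.14). Macrophage markers had 4 of 9 higher and 2 lower (-0.07), and endothelial markers 2 of 6 higher and 1 lower (0.56). The effect of YAP-SY differed between histologies for 8 of 12 FXR-activated targets, 8 of 20 PPAR alpha targets, 4 of 18 PXR and CAR targets, 3 of 10 ERR alpha targets, 1 of 10 LXR targets and 5 of 8 hepatocyte markers, each larger in CCA, where 5.02% of all tested genes were called as higher and 10.2% as lower. With library size alone these counts were 3, 1, 1, 0, 1 and 1 in the same order, with 2 LXR targets called as lower, where 0.819% of all genes were called as higher and 22.8% as lower. Ppara, with a difference of 1.17 (SE 0.48, adjusted p = 0.115), did not pass that test.

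**Figure D4:**
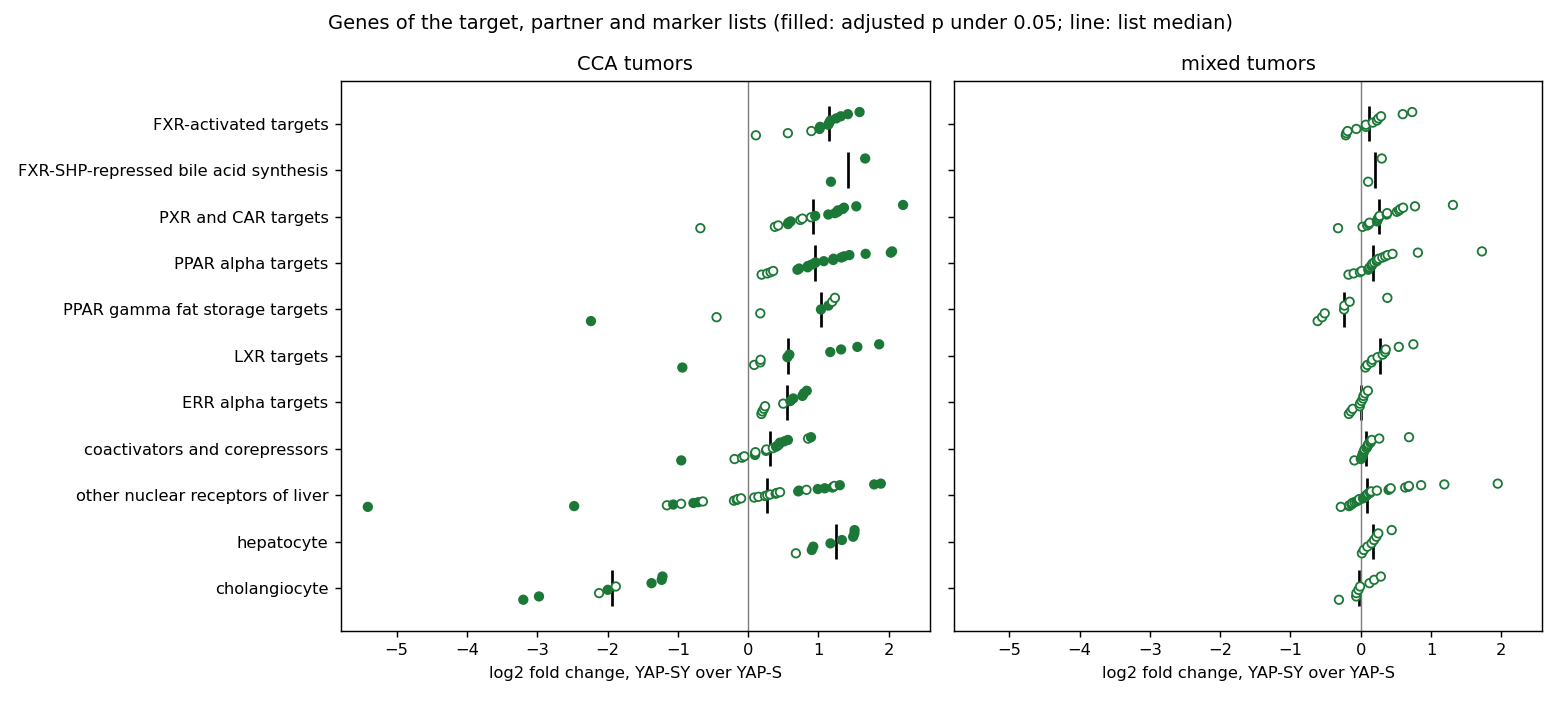
Log2 fold change of YAP-SY over YAP-S for the genes of each target, partner and marker list in CCA (left) and mixed tumors (right), with TMM scaling; filled points have an adjusted p under 0.05 and lines mark list medians. In CCA the PPAR alpha target median is 0.95 and the hepatocyte marker median 1.25, and no point is filled in mixed tumors.

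For each receptor the genes nearest in pattern over the 12 tumors were taken, by the root mean square difference of centred log2 CPM among 10615 genes of at least 5 CPM. Nearest to Nr1h4 were Gnl3 (0.09), Galm (0.10) and Ctage5 (0.11). Nearest to Ppara were Ces1e (0.10), Slc47a1 (0.13) and Sugct (0.14), and nearest to Nr1i3 were Sgk2 (0.17), Slco1a1 (0.21) and P2ry4 (0.23). Ppard was nearest to Cdr2 (0.27), Tssc4 (0.32) and Cad (0.32), and Nr0b2 to Spata2l (0.25), Tymp (0.29) and Axin2 (0.35). Nr1i2 was nearest to Ipmk, Hsd17b10 and Cpox (0.07 each), Pparg to Cpeb3 (0.13), Zfp655 (0.14) and Fbxo3 (0.15), and Rxra to Gltpd2 (0.08) and Cbs (0.11). Nr1h3 was nearest to H2-Ke6, Ecsit and Ech1 (0.06, 0.06 and 0.07), and Esrra to Timm13 (0.12), Mbd3 (0.15) and Rps15 (0.16). Within the 10, Rxra and Nr1h3 were the closest pair (0.14), before Nr1i2 and Nr1h3 (0.21) and Nr1i3 and Ppara (0.23).

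SB1 cells were measured in a table of their own with 25341968 to 30541185 counts per sample, so their CPM (by library size) are set beside the tumors with no test. Krt19, a keratin of bile duct cells, was at 1100 to 1789 CPM in SB1 cells and 35.8 to 88.4 CPM in the YAP-S CCA tumors, while the surface marker Epcam was near 0 at 0.114 to 0.395 CPM in SB1 cells. Hepatocyte markers summed to 1193 to 1750 CPM in SB1 cells, with Alb at 612 to 1113 CPM.

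Esrra was at 32.6, 32.9 and 49.5 CPM in the 3 SB1 samples, above every tumor on either scale. Ppard was at 18.4, 25.9 and 30.4 CPM, above every YAP-SY tumor and around the level of YAP-S CCA tumors (21.6 to 31.7 CPM by library size). Pparg was at 12.1, 10.3 and 11.2 CPM. YAP-S CCA tumors held 11.7 to 15.6 CPM of it by library size, above 2 of the 3 SB1 samples, and the other tumor groups lay higher than all 3. Per kb, Esrra led the 10 receptors at 15.1 CPM per kb, followed by Nr1h4 (5.87), Pparg (5.64), Rxra (5.60) and Ppard (5.37).

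Nr1h4 was at 12.6, 12.9 and 15.1 CPM in SB1 cells, Rxra at 33.2, 33.3 and 25.2 CPM and Nr1h3 at 4.13, 3.83 and 3.61 CPM, all below every tumor. The remaining receptors were close to the limit of detection. Nr1i2 had 14, 11 and 17 counts in SB1 cells, Nr0b2 2, 8 and 8, Ppara 2, 3 and 13 and Nr1i3 1, 0 and 0. A count of 0 allows up to 3 counts, or 0.118 and 0.114 CPM in SB1 samples 2 and 3, which covers counting error only.

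**Figure D5:**
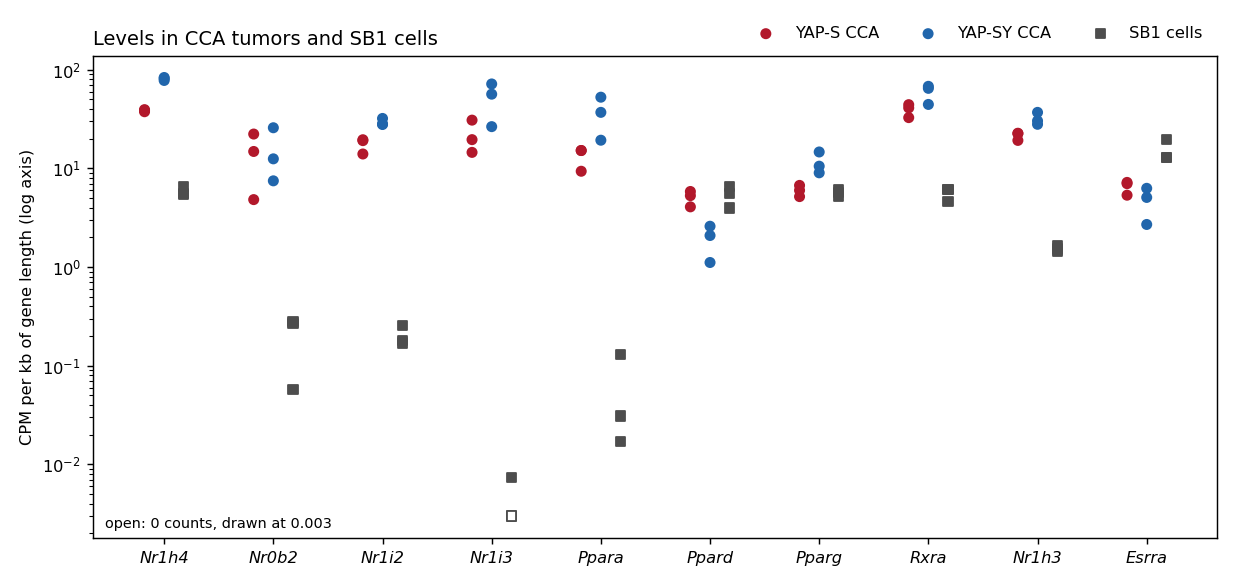
Level per kb of gene length (CPM per kb, log axis) of each receptor in YAP-S CCA tumors, YAP-SY CCA tumors (circles, TMM-scaled) and SB1 cells (squares, library size), with 3 samples per group; open symbols mark 0 counts. Esrra is highest in SB1 cells, at a mean of 15.1 CPM per kb, and Nr0b2, Nr1i2, Nr1i3 and Ppara lie far below their tumor levels there.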

How the data were processed

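Total RNA of tumor nodules and cell lines was made into libraries with the TruSeq mRNA kit (version 2), which does not mark strand, per the labels. STAR and mm10 are named in the submitters' processing notes; their versions, the counting tool and its strand setting are not given in the sources used here. For tumors the authors deposited gene counts under the name of corrected counts; what was corrected is not stated. SB1 values were deposited raw counts with gene lengths. Its 3 columns that match no sample label were not used.

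Of 43346 genes, 18318 passed filterByExpr by group. All 12 tumors entered 1 fit in edgeR 4.0.16 (R 4.3.3; TMM; glmQLFit and glmQLFTest; 1 term per group), and 6 contrasts were tested with Benjamini-Hochberg adjustment over all tested genes at 0.05. Fold changes and SE come from that fit. The script was tested on simulated data. Alternatives were DESeq2 size factors in edgeR, library size alone, no filter, the DESeq2 1.42.0 Wald test, limma-voom (limma 3.58.1), a replicate block, the groups of a contrast alone, and each tumor left out.

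The 10 members and 18 gene lists (188 genes) were chosen from textbook knowledge with earlier results of these data known. Named by rule were all members, the 3 genes of each pathway list with the smallest p in the CCA comparison, Cyp7a1, Cyp8b1, markers that define a cell type, and the 3 nearest patterns per member; other genes are marked in the text as picked with their values known. A few genes that these rules select are not reported here. Libraries within a group differed beyond sampling noise, and none was counted as a duplicate. Tumors are taken as separate by their labels; where 2 nodules shared an animal, the p-values would be too small.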

Additional observations from a re-analysis of the deposited data

Results flagged for a closer look

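For Nr1h4, the effect of YAP-SY against YAP-S differed between the histologies in a test of the difference itself. The effect was larger in CCA than in mixed tumors by 0.81 on the log2 scale (SE 0.20, edgeR adjusted p = 0.0204, n = 3 tumors per group). The call was lost with library size alone. It was also lost when YAP-S mixed tumor 2 or YAP-S CCA tumor 5 was left out (largest edgeR adjusted p 0.0578). All 3 YAP-SY CCA tumors were above all 3 YAP-S CCA tumors, where 24.3% of all tested genes were higher without overlap. The mean log2 level of 8 hepatocyte markers differed by 1.20 between the same CCA groups and by 0.15 between the mixed groups; its part in this result was not tested.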

How the results depend on the processing

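In CCA, 8 receptors were called in the fit as reported, where 39.1% of all tested genes were. With library size alone 4 were called: Nr1h4, Ppara and Ppard of those 8, and Esrra. With 1 tumor left out 5 to 8 were called, the lowest without tumor 5 of YAP-S CCA or tumor 8 of YAP-SY CCA. The CCA counts over all genes were 7171 in the fit as reported, 8824 with library size alone and 5121 to 7609 in the leave-outs. Over both histologies, 6 were called, 3 with library size alone and 3 to 7 with 1 tumor left out. The counts over all genes there were 4555, 6652 and 2763 to 5198 in the same order. For the difference between histologies, 1 was called, 0 with library size alone, and 0 to 2 with 1 tumor left out. For CCA against mixed tumors in YAP-SY, 0 were called, 1 by DESeq2 and 0 to 1 with 1 tumor left out. Nr0b2 in CCA changed sign with library size alone (-0.40) and ranged from -0.49 to 0.62 in the leave-outs. In mixed tumors, leave-outs ranged from -0.23 to 0.0747 for Nr1h3, -0.61 to 0.0818 for Esrra, -0.29 to 0.0885 for Rxra and -0.0435 to 0.63 for Nr0b2, none of them called. Except where a change follows from fewer tumors, the cause was not tested. Leave-outs that reduce a group to 2 tumors share the spread of all groups.

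Counts over all genes moved by more than 1.5 times in 5 of the 6 comparisons. Mixed tumors went from 0 to 11 with DESeq2. The difference between histologies went from 2788 to 4330 with library size alone, 4231 with DESeq2 and 1058 to 3077 in the leave-outs. Over both histologies the count was 4555, and 2763 to 5198 in the leave-outs. CCA against mixed tumors in YAP-S went from 0 to 117 with DESeq2 size factors, 711 with library size alone, 570 without the filter, 1514 with DESeq2, 758 with limma-voom, 2393 with those groups alone and 0 to 670 in the leave-outs. In YAP-SY it went from 532 to 2006 with library size alone, 859 without the filter, 1834 with DESeq2, 42 with limma-voom, 0 with those groups alone and 0 to 595 in the leave-outs.

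Tumor numbers 3, 5 and 9 occur in both models, and no label ties them to shared animals. For these numbers, the departures of each tumor from its group mean had correlations of 0.18, 0.35 and 0.09, against -0.47 to 0.29 (median 0.0067) for other pairs. All 3 were above that median, and 0.35 was above every other pair. No pairing was assumed because no label gives it, and whether these tumors shared an animal was not tested. The replicate block used limma-voom with a consensus correlation of 0.22. With it 8 receptors were called in CCA, 0 in mixed tumors, 6 over both histologies and 1 for the difference between histologies. The counts over all genes were 7126, 0, 5215 and 2986 in the same order. Nr0b2 in CCA was at -0.0284. Over all genes the replicate block gave 991 for CCA against mixed tumors in YAP-S and 46 in YAP-SY.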
